A study of Rattus norvegicus with 60 samples.

Results

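The genes described here move glutamate across membranes in the hippocampus, or turn it into glutamine. They were chosen by name and comprise the plasma membrane transporters Slc1a1, Slc1a2 and Slc1a3, the vesicular transporters Slc17a6, Slc17a7 and Slc17a8, and Glul, which encodes glutamine synthetase. Of these 7 genes, 6 had a probe on the array, 1 probe each, out of 21480 gene symbols in all. No probe carried the symbol Glul, so glutamine synthetase was not analysed here. The probe annotation placed Slc17a6, Slc17a7 and Slc1a1 on chromosome 1, Slc1a3 on chromosome 2, Slc1a2 on chromosome 3 and Slc17a8 on chromosome 7, and named transcript variant 1 for Slc1a2.

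Neurons load glutamate into synaptic vesicles with the vesicular transporters and release it at excitatory synapses. Astrocytes then clear most of it from the cleft with Slc1a2 and Slc1a3, convert it to glutamine with glutamine synthetase and pass the glutamine back to neurons, which make glutamate from it again. In the hippocampus Slc17a7 is known as the main vesicular transporter of excitatory neurons.

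Total RNA came from F344BN rats, an F1 hybrid of Fischer and Brown Norway strains, and was hybridised to Illumina bead arrays. The tissue was CA1 and CA3, which hold pyramidal neurons, the dentate gyrus (DG), which holds granule neurons, or whole hippocampus. Each had aged impaired and aged intact rats of 24 months and adult rats of 12 months, with 4 arrays per group in CA1, CA3 and DG, and 9, 9 and 6 arrays in whole hippocampus. The labels named no measure of impairment and no treatment, and did not say whether arrays came from separate animals, so a p-value here reflects the spread among arrays, which may be technical.

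CA1, CA3 and DG were each run on a separate slide, and region and slide cannot be told apart. On 59 arrays between 40.6% and 47.2% of 22523 probes were detected, against 22.2% on CA1 adult replicate 4, whose median correlation with the other CA1 arrays was 0.73. Whole hippocampus intact replicates 7 and 2 had the lowest such correlations in their region, 0.956 and 0.966. The labelled subregions were checked with marker lists. All 6 CA1 neuron markers were higher in CA1 than in CA3 and than in DG, and 4 of 5 tested CA3 neuron markers were lower in CA1 than in CA3. All 4 tested granule neuron markers were lower in CA1 and in CA3 than in DG. Over all tested probes, 29.6% were called in CA1 against CA3, 44% in CA1 against DG and 39.5% in CA3 against DG. Fibcd1, Pou3f1 and Mpped1 were detected on no DG array and Dsp on no CA1 or CA3 array. Their calls against DG therefore follow from the detection filter. Precision is limited by how many arrays each group had, and in tissue fewer cells of a type and less RNA per cell cannot be told apart.

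Levels below are log2 intensities after background correction and quantile normalization. Differences are on the same log2 scale with their standard error or 95% interval, and adjusted p-values are from limma, two-sided, with a threshold of 0.05 over all probes tested. Levels of different probes are not compared. A probe was counted as detected on an array when its detection p-value was under 0.01. The probes of Slc1a1, Slc1a2, Slc1a3, Slc17a6 and Slc17a7 were detected on all 60 arrays. Slc17a8 was detected on 6 arrays, all of CA3.

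Several transporters differed between subregions. Slc17a6 was much higher in CA1, Slc17a7 was lowest there, and the astrocyte transporters Slc1a2 and Slc1a3 were modestly higher in CA1. Slc1a1 was highest in DG, and Slc17a8 was detected only on CA3 arrays. In CA1 against CA3, 5 of 6 members passed the threshold, where 29.6% of all tested probes did. In CA1 against DG it was 5 of 6, where 44% of all probes did, and in CA3 against DG 3 of 6, where 39.5% did. The median absolute difference of the members was 0.59, 0.39 and 0.25 in these 3 comparisons, against 0.22, 0.27 and 0.24 over all tested probes. Slc17a8 entered these tests only through CA3, where it was detected, so its calls against CA1 and DG follow from the detection filter. The other 5 members, detected on all 60 arrays, gave 4, 5 and 2 calls, with medians of 0.44, 0.51 and 0.25.

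**Figure D1:**
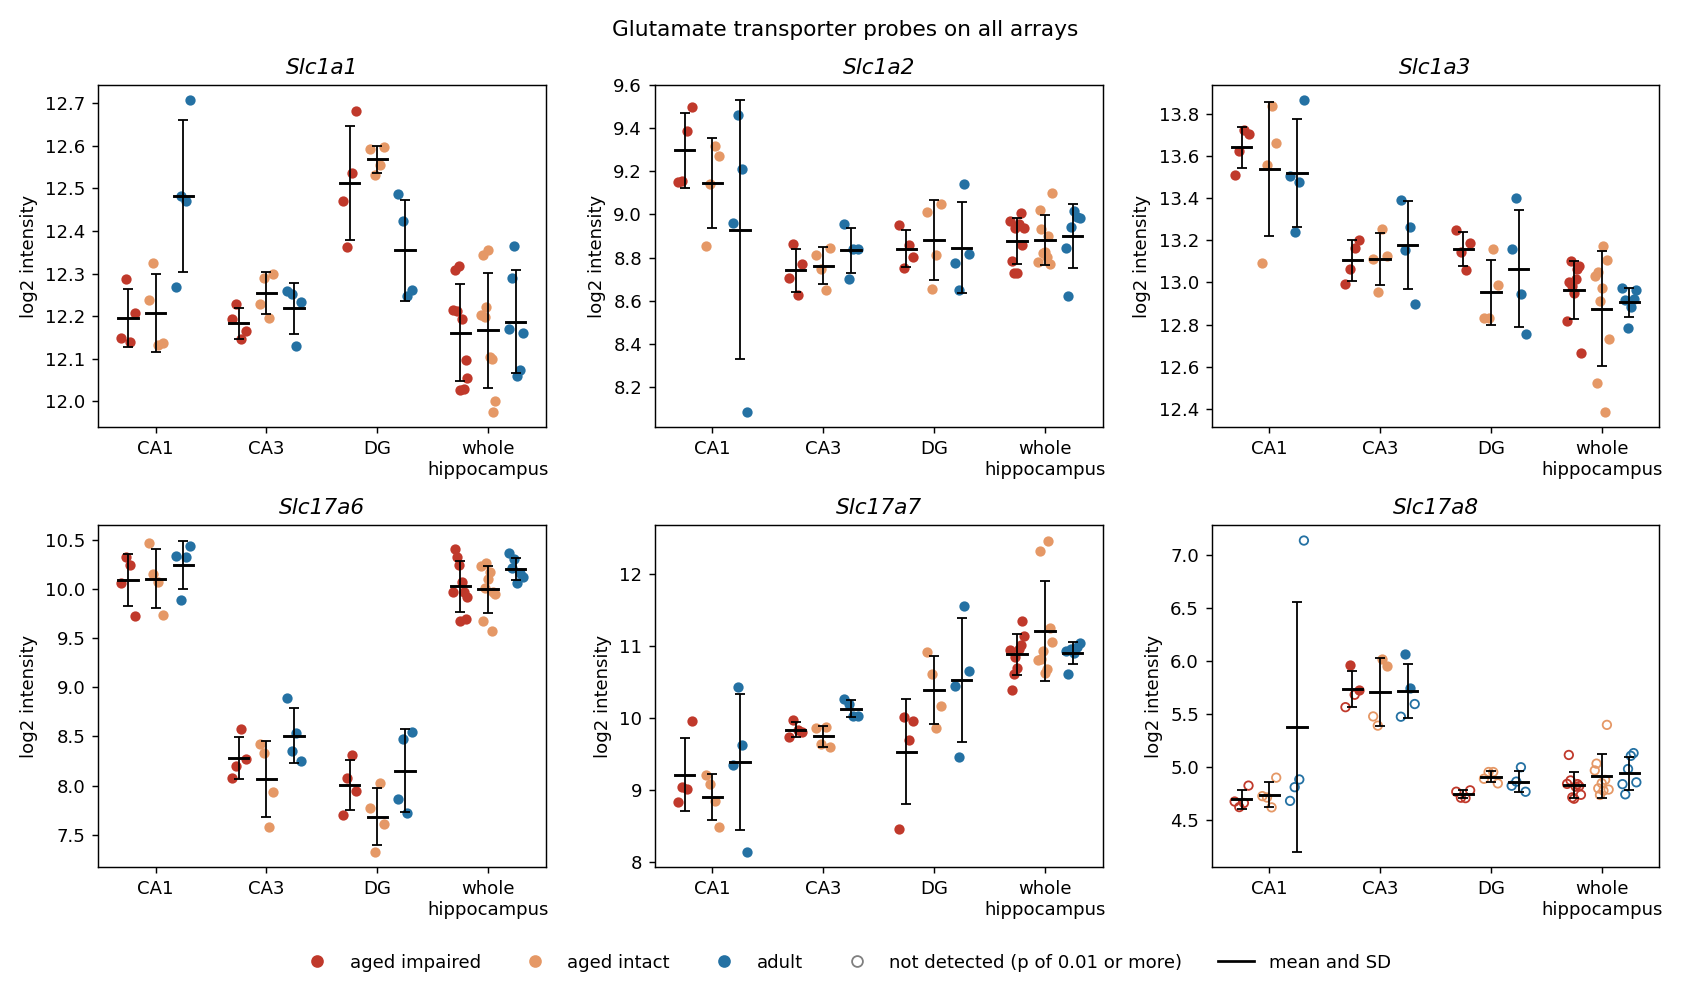
Log2 intensity of each of the 6 measured genes (vertical axis, 1 panel per gene, with its own scale) by region on the horizontal axis, with aged impaired, aged intact and adult arrays from left to right in each region. Points are arrays, open where the probe was not detected, and bars are the mean and SD. Slc17a6 in CA1 sits between 9.73 and 10.47, above all CA3 and DG arrays, and the open Slc17a8 point at 7.14 is CA1 adult replicate 4.

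Slc17a6, also known as VGLUT2, loads glutamate into vesicles and is best known from subcortical neurons such as those of the thalamus. In CA1 its 12 arrays ran from 9.73 to 10.47 with a mean of 10.15 ± 0.26 (SD). In CA3 they ran from 7.57 to 8.90 with a mean of 8.29 ± 0.33, and in DG from 7.33 to 8.54 with a mean of 7.95 ± 0.36. CA1 did not overlap either other subregion. The difference was 1.86 ± 0.12 for CA1 minus CA3 (3.64-fold, adjusted p = 1.92e-13) and 2.20 ± 0.12 for CA1 minus DG (4.60-fold, adjusted p = 1.26e-15). Both were called under all alternatives run. CA3 and DG overlapped, with CA3 higher by 0.34 ± 0.12 (adjusted p = 0.0267). That call was lost in the processed values (0.26, adjusted p = 0.131) and on leaving out any of 8 of the 36 arrays in turn.

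Because Slc17a6 is abundant in the thalamus, which lies beside the hippocampus, thalamus markers were read beside it. Of 7 listed, 6 had a probe, and Lef1, Zic1, Rgs16 and Shox2 were detected on no CA1, CA3 or DG array. The mean level of the 6 ran from 5.28 to 5.83 over the CA1 arrays, 5.33 to 5.60 over the CA3 arrays and 5.20 to 5.41 over the DG arrays. Prkcd, the 1 thalamus marker that passed the threshold between subregions, was higher in CA1 than in DG and in CA3 than in DG. It is also on the list of CA3 neuron markers. Dcn, on the lists of CA1 neuron and meninges markers, had the profile most like that of Slc17a6 across the 9 subregion groups. Of 5 tested meninges markers, 3 were higher and 1 lower in CA1 than in CA3 (80% called, beside 29.6% of all probes). All 5 were higher in CA1 than in DG, where 44% of all probes were called. Their part in the result was not tested.

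Slc17a7, also known as VGLUT1, does the same work as Slc17a6, and its subregions ran the other way. Its CA1 arrays ran from 8.14 to 10.42 with a mean of 9.16 ± 0.62, its CA3 arrays from 9.60 to 10.26 with a mean of 9.90 ± 0.20 and its DG arrays from 8.45 to 11.55 with a mean of 10.15 ± 0.79. The ranges overlapped in every pair, and the SD in CA3 was the smallest of the 3. Slc17a7 was lower in CA1 than in CA3 by a log2 difference of -0.74 ± 0.22 (adjusted p = 0.00974) and lower in CA1 than in DG by -0.98 ± 0.22 (adjusted p = 0.000451). Without CA1 adult replicate 4, where it was lowest, the differences were -0.60 (adjusted p = 0.0115) and -0.84 (adjusted p = 0.000394). CA3 and DG did not differ beyond their spread (-0.25, 95% interval -0.69 to 0.20, adjusted p = 0.401). With array weights CA3 was lower than DG by -0.33 (adjusted p = 0.0238).

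Several other markers of pyramidal and granule neurons were lower in CA1 than in CA3. Of 9 tested, 6 (66.7%, beside 29.6% of all probes) were lower and none higher, with a median difference of -0.31 against -0.02 over all probes. The lower ones were Neurod2, Neurod6, Nrgn, Snap25, Stmn2 and Syt1. Camk2a, the kinase of excitatory neurons, was at 0.00 ± 0.18 (adjusted p = 0.99). Against DG, 3 were lower and 1 higher in CA1 (44.4% called, beside 44% of all probes). The mean level of the 9 markers ran from 10.54 to 11.30 over the CA1 arrays, 11.18 to 11.33 over the CA3 arrays and 10.84 to 11.35 over the DG arrays. Whether they bear on Slc17a7 was not tested.

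The opposite order of Slc17a6 and Slc17a7 across subregions is why their promoters are shown here, as the 250 bases before the RefSeq start in the GRCr8 rat assembly. They lie at chr1:110348197-110348446 (plus strand) and chr1:104785955-104786204 (plus strand). Capitals mark the GC box GGGCGG or its complement CCGCCC.
Slc17a6: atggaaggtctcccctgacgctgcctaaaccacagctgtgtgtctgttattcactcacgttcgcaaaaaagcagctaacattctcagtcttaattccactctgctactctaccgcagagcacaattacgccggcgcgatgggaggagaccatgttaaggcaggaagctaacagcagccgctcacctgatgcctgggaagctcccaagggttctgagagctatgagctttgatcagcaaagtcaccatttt
Slc17a7: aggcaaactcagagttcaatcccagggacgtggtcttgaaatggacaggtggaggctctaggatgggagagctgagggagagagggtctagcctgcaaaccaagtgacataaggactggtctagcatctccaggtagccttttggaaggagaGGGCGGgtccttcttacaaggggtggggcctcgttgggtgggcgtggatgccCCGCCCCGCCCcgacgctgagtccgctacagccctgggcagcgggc
The Slc17a7 window held the GC box 3 times, 2 of them overlapping each other, and was 61.2% G or C. The Slc17a6 window held it 0 times and was 50.8% G or C. The box was found in 30.5% of 33469 rat promoter windows of this length. Both windows held the E-box letters CANNTG 2 times, which read the same on either strand and were found 2 or more times in 30.8% of windows. These are descriptions of the letters, and the arrays measured no binding.

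Slc1a3, also known as GLAST, and Slc1a2, also known as GLT-1, are the astrocyte transporters that clear synaptic glutamate, and both were highest in CA1. Slc1a3 had a mean of 13.57 ± 0.23 over the CA1 arrays, 13.13 ± 0.14 over the CA3 arrays and 13.06 ± 0.19 over the DG arrays. The CA1 arrays, from 13.09 to 13.87, overlapped the CA3 arrays, from 12.90 to 13.39, and the DG arrays, from 12.75 to 13.40. The difference was 0.44 ± 0.09 for CA1 minus CA3 (1.35-fold, adjusted p = 0.000201) and 0.51 ± 0.09 for CA1 minus DG (1.42-fold, adjusted p = 1.29e-05), called under all alternatives run. CA3 and DG did not differ beyond their spread (0.07, 95% interval -0.10 to 0.25).

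Slc1a2 had a mean of 9.12 ± 0.38 over the CA1 arrays, 8.78 ± 0.10 over the CA3 arrays and 8.86 ± 0.15 over the DG arrays. CA1 adult replicate 4, at 8.08, was the lowest of the 36 arrays, and the other CA1 arrays ran from 8.85 to 9.50. The difference was 0.35 ± 0.10 for CA1 minus CA3 (1.27-fold, adjusted p = 0.0101) and 0.27 ± 0.10 for CA1 minus DG (1.20-fold, adjusted p = 0.0332). Without that array they were 0.44 (adjusted p = 5.92e-06) and 0.36 (adjusted p = 5.67e-05). In the processed values both calls were lost (0.25, adjusted p = 0.379, and 0.07, adjusted p = 0.795), and the second was lost on leaving out any of 9 of the 36 arrays in turn. CA3 and DG did not differ beyond their spread (-0.08, 95% interval -0.29 to 0.13).

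Other astrocyte markers were read beside this pair. Of 17 tested, 4 (23.5%, beside 29.6% of all probes) were higher and none lower in CA1 than in CA3, with a median of 0.17. Against DG, 5 were higher and 1 lower in CA1 (35.3% called, beside 44% of all probes), with a median of 0.19. Gja1, Ndrg2 and Slco1c1 were higher in CA1 against both. Gfap, the astrocyte filament protein, was at 0.17 ± 0.11 for CA1 minus CA3 (adjusted p = 0.255), and Aldoc, the astrocyte aldolase, at 0.14 ± 0.13 (adjusted p = 0.429). Without CA1 adult replicate 4 these became 0.29 (adjusted p = 0.000589) for Gfap and 0.28 (adjusted p = 0.000132) for Aldoc. In CA1 the mean level of the 18 astrocyte markers with a probe ran from 11.19 to 11.48 over the aged impaired arrays and 11.17 to 11.35 over the aged intact arrays. Over the adult CA1 arrays, which include replicate 4, it ran from 9.87 to 11.43. It ran from 10.93 to 11.08 over the CA3 arrays and 10.95 to 11.17 over the DG arrays. Kcnj10 was detected on no CA3 or DG array. The counts above were not redone without replicate 4, and the part of these markers in the result was not tested.

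The promoters of this pair are shown because both transporters were highest in the same subregion. RefSeq lists several starts for each, and the first listed is used, at chr3:109459859-109460108 (plus strand) and chr2:59557809-59558058 (minus strand).
Slc1a2: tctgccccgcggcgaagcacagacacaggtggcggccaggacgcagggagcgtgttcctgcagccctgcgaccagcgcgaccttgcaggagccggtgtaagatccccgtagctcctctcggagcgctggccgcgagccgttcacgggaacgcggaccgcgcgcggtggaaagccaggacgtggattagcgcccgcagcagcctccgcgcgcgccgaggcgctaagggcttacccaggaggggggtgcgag
Slc1a3: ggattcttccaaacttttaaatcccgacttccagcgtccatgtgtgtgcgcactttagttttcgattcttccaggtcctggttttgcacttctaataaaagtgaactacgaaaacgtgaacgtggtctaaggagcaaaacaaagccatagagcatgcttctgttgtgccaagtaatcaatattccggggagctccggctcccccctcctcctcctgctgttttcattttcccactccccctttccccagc
Neither window held the GC box, and each held CANNTG 1 time. The Slc1a2 window was 71.2% G or C and the Slc1a3 window 48%, against a median of 51.2% over all windows. The second start listed for Slc1a2 lies elsewhere on the chromosome, and its window held CANNTG 3 times, no GC box and 45.6% G or C, so these values depend on the start. The 3 windows of Slc1a3 were 48% to 50% G or C.

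Slc1a1, also known as EAAC1, is the neuronal plasma membrane transporter for glutamate and cysteine. Its 12 DG arrays ran from 12.25 to 12.68 with a mean of 12.48 ± 0.13, its CA1 arrays from 12.13 to 12.71 with a mean of 12.30 ± 0.18 and its CA3 arrays from 12.13 to 12.30 with a mean of 12.22 ± 0.05. The ranges overlapped. CA1 was lower than DG by -0.18 ± 0.05 (adjusted p = 0.0066) and CA3 lower than DG by -0.26 ± 0.05 (adjusted p = 0.000228), and both were called under all alternatives run. CA1 and CA3 did not differ beyond their spread (0.08, 95% interval -0.03 to 0.19), although with array weights CA1 was higher by 0.09 (adjusted p = 0.0235).

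Slc17a8, also known as VGLUT3, is known in the hippocampus from some interneurons that also make Cck and from serotonin fibres. It was detected on 2 of 4 aged impaired, 2 of 4 aged intact and 2 of 4 adult CA3 arrays. It was not well above background on any CA1, DG or whole hippocampus array. The CA3 arrays, detected or not, ran from 5.39 to 6.07 with a mean of 5.72 ± 0.23. The DG arrays, all at background, ran from 4.71 to 5.00 with a mean of 4.84. The faintest probes detected on the DG arrays averaged 5.68, close to the CA3 mean. On the CA1 arrays they averaged 5.90, and the measured mean of Slc17a8 was 4.94. Both CA1 averages include adult replicate 4 and were not redone without it, so their order against the CA3 mean is not read. No fold is given against either subregion, since only 6 of 12 CA3 arrays detected the gene. Without CA1 adult replicate 4, which read 7.14 with no detection, the CA1 arrays ran from 4.62 to 4.90. These are background values, so no difference is read from them.

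Interneuron markers were read beside it, not all of them markers of the cells known to hold Slc17a8. Of 8 tested, Cck, Pvalb and Vip were higher and none lower in CA1 than in CA3 (37.5% called, beside 29.6% of all probes). Against DG, 7 were higher in CA1 (87.5%, beside 44% of all probes) and 6 in CA3 (75%, beside 39.5%). The mean level of the 8 ran from 8.66 to 9.33 over the CA1 arrays, 8.72 to 9.15 over the CA3 arrays and 8.09 to 8.56 over the DG arrays.

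**Figure D2:**
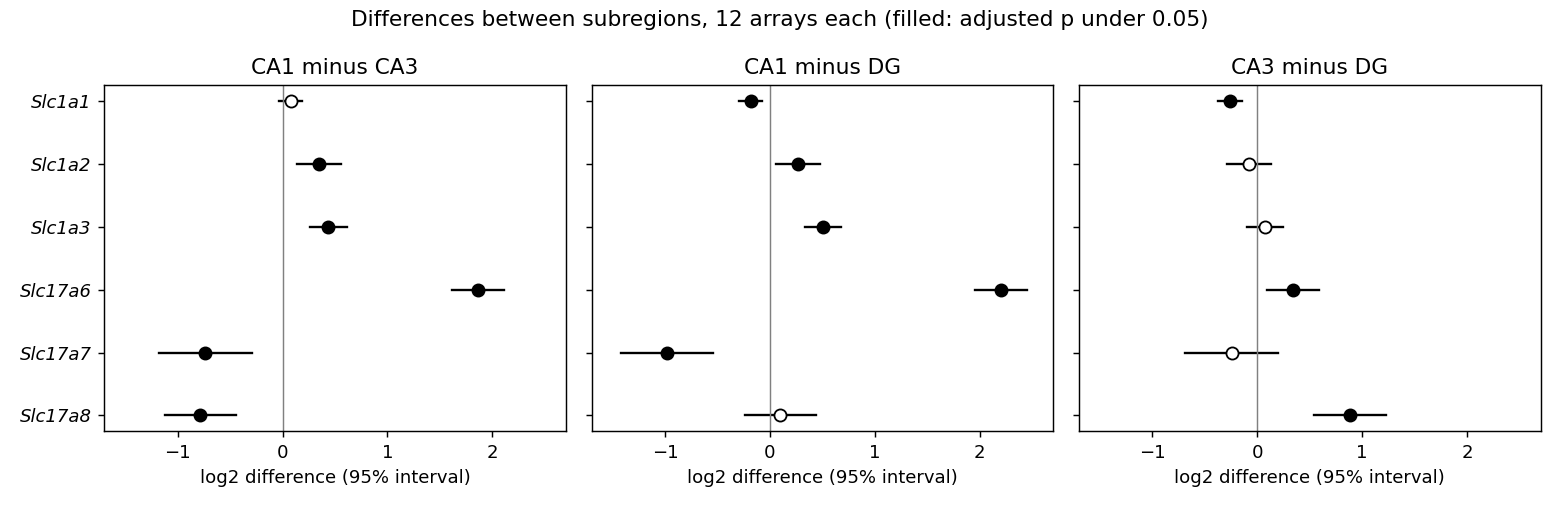
Differences between subregions for the 6 measured genes, in log2 units on the horizontal axis, as points with 95% intervals over 12 arrays per subregion. Filled points passed an adjusted p of 0.05. Slc17a6 stands at 1.86 and 2.20 in the first and second panels while Slc17a7 stands at -0.74 and -0.98, and Slc17a8 was not detected in CA1 or DG, so its values there are at background and its filled points follow from the detection filter.

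The genes with the most similar profiles were found by the root mean square difference between mean-centred levels over the 9 subregion groups, a description over 9 points that share the normalization. For Slc17a6, whose means spanned 2.56, they were Dcn (0.16), Tpbg (0.18) and Ldb2 (0.18). For Slc17a7, which spanned 1.62, they were Mllt11 (0.14), Phyhip (0.19) and Fgf12 (0.21). For Slc1a2, which spanned 0.56, they were Gpr37l1 (0.053), Mast2 (0.056) and Plpp3 (0.063). For Slc1a3, which spanned 0.69, they were Ampd3 (0.053), Cyp2j3 (0.058) and Mafk (0.064). For Slc1a1, which spanned 0.39, they were Dcaf5 (0.055), Usp47 (0.056) and Ammecr1l (0.056).

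No member passed the threshold between aged and adult rats in any region in limma. In CA1, 0 of 5 tested members were called for aged against adult, where 0.0501% of all probes were, and 1 had an unadjusted p under 0.05. In CA3, 0 of 6 were called, where 0.912% of all probes were, and 1 had an unadjusted p under 0.05. In DG, 0 of 5 were called, where 0.0296% of all probes were, and 0 had an unadjusted p under 0.05. In whole hippocampus, 0 of 5 were called, where 0.318% of all probes were, and 1 had an unadjusted p under 0.05. With so few probes called in each region, a count of 0 among 5 or 6 members is near the background. Over all probes, an unadjusted p under 0.05 was held by 606 of 9978 in CA1 and 1364 of 9873 in CA3. In DG it was 246 of 10152 and in whole hippocampus 587 of 10370. Of 17 astrocyte markers tested in CA1 and in DG, 0 were called by age, with medians of 0.44 and -0.01. Of 16 in CA3 and 17 in whole hippocampus, 1 was called in each, with medians of 0.04 and 0.03. That marker was Gfap, which rose in aged rats by 0.68 ± 0.08 in CA3 (adjusted p = 0.000584) and by 0.45 ± 0.08 in whole hippocampus (adjusted p = 0.00421). It did not pass in CA1 (0.80 ± 0.25, adjusted p = 0.63) or in DG (0.19 ± 0.12, adjusted p = 1). The CA1 median of 0.44 and the CA1 difference of Gfap include adult replicate 4 and are not given without it here. In CA1 the mean level of the astrocyte markers had a median of 11.35 over aged impaired, 11.27 over aged intact and 11.27 over adult arrays. Its lowest value in CA1 was 9.87, on an adult array.

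The nearest to a call was Slc17a7 in CA3. It had 9.74, 9.97, 9.84 and 9.80 in aged impaired rats, 9.86, 9.64, 9.87 and 9.60 in aged intact rats, and 10.26, 10.19, 10.02 and 10.03 in adult rats. All 8 aged arrays lay below all 4 adult arrays. The difference was -0.34 ± 0.08 (0.791-fold, 95% interval -0.51 to -0.17, adjusted p = 0.0669), with an adjusted p from 0.0639 to 0.197 when 1 array was left out. Without background correction it passed, at -0.32 (adjusted p = 0.0395), and over the other alternatives its adjusted p reached 1.

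The other regions did not settle the direction for Slc17a7. In CA1 the aged mean was 9.05 ± 0.42 (n = 8) against an adult mean of 9.38 ± 0.95 (n = 4). The adult arrays held both extremes of the region, 10.42 in replicate 2 and 8.14 in replicate 4, and the difference of -0.33 became -0.74 when replicate 4 was left out (adjusted p = 0.178) and 0.02 when replicate 2 was (adjusted p = 0.97). In DG the aged mean was 9.96 ± 0.73 (n = 8) against an adult mean of 10.53 ± 0.86 (n = 4), a difference of -0.57 ± 0.36 (95% interval -1.34 to 0.21, adjusted p = 1). In whole hippocampus the difference was 0.14 ± 0.20 (adjusted p = 0.955), with 0.06 on the first slide alone and 0.22 on the second slide alone, and -0.02 without intact replicates 2 and 7.

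Slc17a6 was lower in the aged mean in every region without passing the threshold in any. The differences were -0.15 ± 0.18 in CA1, -0.33 ± 0.16 in CA3 (adjusted p = 0.369), -0.30 ± 0.18 in DG and -0.19 ± 0.09 in whole hippocampus (adjusted p = 0.845). In CA3, 7 of 8 aged arrays lay below the adult mean, with values of 8.07, 8.20, 8.58 and 8.27 in aged impaired rats, 8.43, 8.33, 7.57 and 7.94 in aged intact rats, and 8.90, 8.35, 8.53 and 8.25 in adult rats. In whole hippocampus, the lowest, median and highest values were 9.67, 9.97 and 10.41 in aged impaired rats, 9.57, 10.01 and 10.27 in aged intact rats, and 10.06, 10.19 and 10.37 in adult rats, with 13 of 18 aged arrays below the adult mean. Intact replicates 2 and 7, the arrays least like the others of this region, were the lowest of their group at 9.68 and 9.57. The difference is not given without them here. The groups overlapped in each region, and the difference was -0.15 on the first whole hippocampus slide alone and -0.22 on the second slide alone.

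Slc1a1 pointed down in CA1 and up in DG. In CA1 it had 12.15, 12.29, 12.14 and 12.21 in aged impaired rats, 12.24, 12.32, 12.13 and 12.14 in aged intact rats, and 12.27, 12.48, 12.47 and 12.71 in adult rats. All 8 aged arrays lay below the adult mean, with a difference of -0.28 ± 0.12 (adjusted p = 0.63). Leaving out adult replicate 4, the highest, gave -0.21 (adjusted p = 0.233). In DG it had 12.47, 12.36, 12.54 and 12.68 in aged impaired rats, 12.59, 12.53, 12.55 and 12.60 in aged intact rats, and 12.49, 12.42, 12.25 and 12.26 in adult rats. All 8 aged arrays lay above the adult mean there, with a difference of 0.19 ± 0.09 (adjusted p = 1). In CA3 the difference was 0.00 ± 0.06, and in whole hippocampus -0.02 ± 0.05.

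The difference between subregions was tested itself. Over CA1, CA3 and DG, the aged minus adult difference of 0 of 6 members differed by the F test, where 0.00915% of all probes passed. The 6 include Slc17a8, which was at background in CA1 and DG. An unadjusted p under 0.05 was held by 754 of 10927 probes and by 1 member. That member was Slc1a1 (adjusted p = 0.537). Its CA1 difference was lower than its DG difference by -0.47 ± 0.11 (95% interval -0.70 to -0.23, adjusted p = 0.178). In 1 fit over all 60 arrays the same value had an adjusted p of 0.0246, and the CA1 difference of -0.28 one of 0.00829. That fit called 39 probes of 10927 for the CA1 minus DG difference by age, and 1985 of 9978 (19.9%) for age in CA1, against 5 with CA1 fitted alone. Without CA1 adult replicate 1 the value was -0.54 (adjusted p = 0.032), and without CA1 adult replicate 4 it was -0.39 (adjusted p = 0.149).

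The astrocyte transporters had small differences by age, apart from that of Slc1a2 in CA1, which depended on adult replicate 4. Slc1a3 was at 0.07 ± 0.17 in CA1, -0.07 ± 0.09 in CA3, -0.01 ± 0.12 in DG and 0.01 ± 0.09 in whole hippocampus. The last has a 95% interval from -0.17 to 0.20. Slc1a2 was at 0.29 ± 0.23 in CA1, -0.08 ± 0.07 in CA3, 0.02 ± 0.12 in DG and -0.02 ± 0.06 in whole hippocampus, the last with an interval from -0.15 to 0.11. Its CA1 value was 0.01 without adult replicate 4. Within the whole hippocampus slides, Slc1a2 was at 0.06 on the first slide and -0.10 on the second slide, and Slc1a3 at 0.05 and -0.02. Within regions, Slc17a8 was tested by age only in CA3, at 0.00 ± 0.14.

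**Figure D3:**
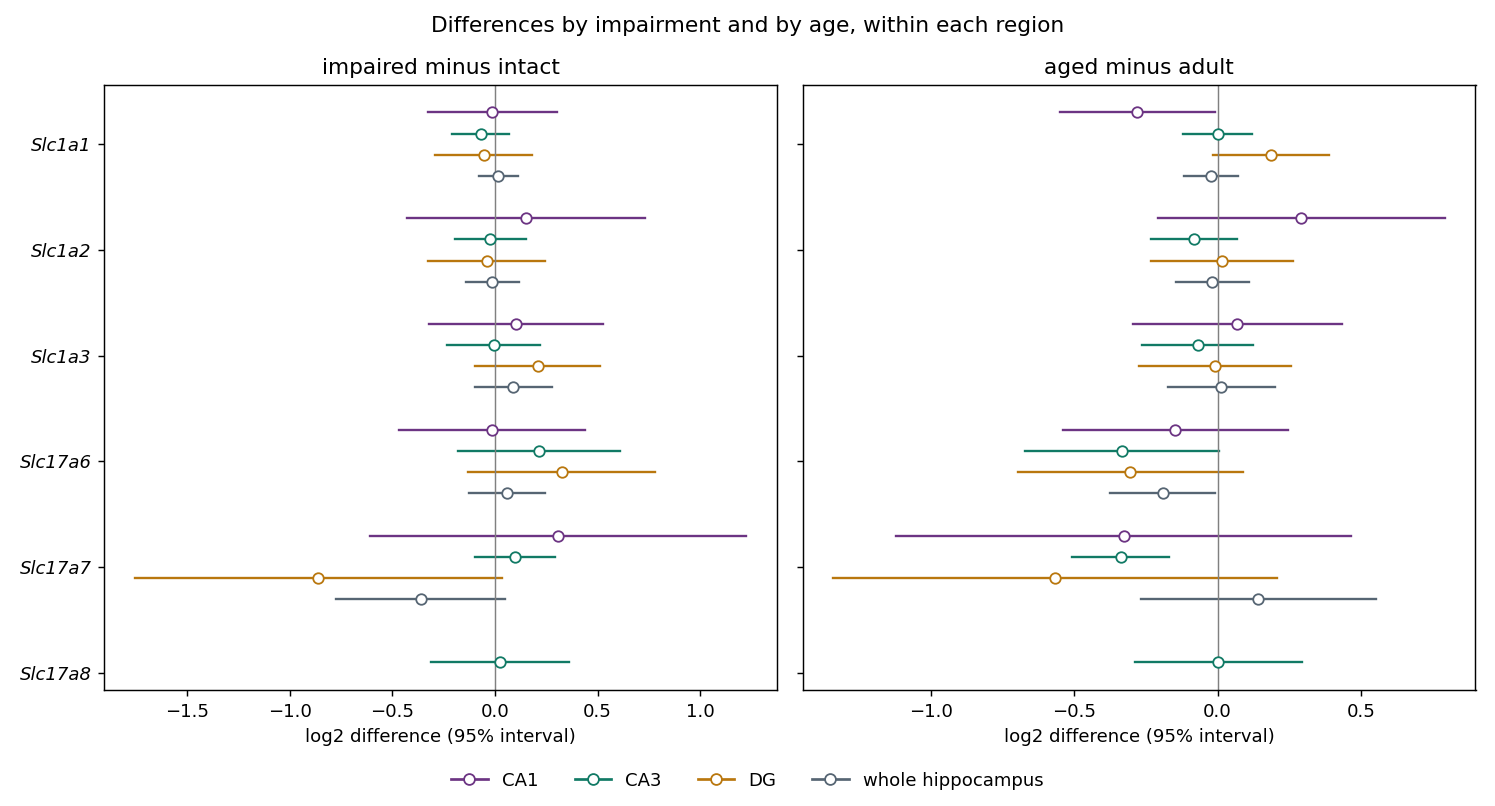
Differences of each measured gene within each region, in log2 units on the horizontal axis with 95% intervals, for impaired minus intact on the left and aged minus adult on the right. All points are open because none passed an adjusted p of 0.05. Slc17a7 in CA3 at -0.34 and Slc1a1 in CA1 at -0.28 have aged minus adult intervals that leave out 0, as does Slc17a6 in whole hippocampus at -0.19.

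No member passed the threshold between aged impaired and aged intact rats in limma. The members called were 0 of 5 in CA1, 0 of 6 in CA3, 0 of 5 in DG and 0 of 5 in whole hippocampus, each against 0% of all tested probes. By unadjusted p under 0.05 the count was also 0 of the members in each region. Over all probes it was 33 of 9978 in CA1, 500 of 9873 in CA3, 196 of 10152 in DG and 600 of 10370 in whole hippocampus. Across subregions the impaired minus intact difference of 0 of 6 members differed by the F test, where 0% of all probes passed. An unadjusted p under 0.05 was held by 0 members and by 108 of 10927 probes. The 6 include Slc17a8, which was at background in CA1 and DG.

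The widest value was Slc17a7 in DG, with 8.45, 10.01, 9.69 and 9.96 in aged impaired rats, against 10.91, 10.62, 9.86 and 10.17 in aged intact rats. All 4 impaired arrays lay below the intact mean, and the groups overlapped. The difference was -0.86 ± 0.42 (95% interval -1.75 to 0.03, adjusted p = 0.894), and it ran from -1.04 to -0.50 when 1 array was left out. In CA1 the same gene was at 0.31 ± 0.42 and in CA3 at 0.10 ± 0.09. In DG, Slc17a6 was at 0.32 ± 0.21 and Slc1a3 at 0.21 ± 0.14 (adjusted p = 0.894 for each), with all 4 impaired arrays above the intact mean.

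In whole hippocampus, Slc17a7 had a lowest, median and highest value of 10.39, 10.94 and 11.35 in aged impaired rats, 10.62, 10.93 and 12.47 in aged intact rats, and 10.62, 10.95 and 11.04 in adult rats. Intact replicates 2 and 7 were at 12.32 and 12.47, and the other 22 arrays ran from 10.39 to 11.35. Impaired minus intact was -0.36 ± 0.20 (adjusted p = 0.639), with -0.40 on the first slide alone and -0.33 on the second slide alone, and -0.03 ± 0.10 without those 2 arrays. Slc1a3 ran the other way on the same arrays, at 12.52 in replicate 2 and 12.39 in replicate 7, against 12.67 to 13.17 on the other 22 arrays. Its impaired minus intact difference was 0.09 ± 0.09, and -0.03 ± 0.07 without them. Leaving out these arrays was chosen after seeing the data.

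**Figure D4:**
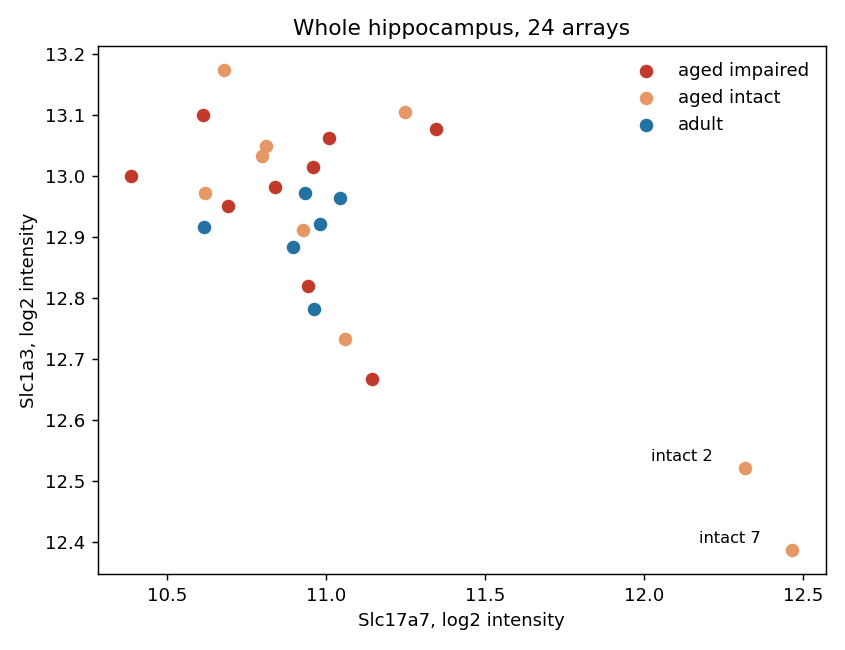
Slc1a3 against Slc17a7 on the 24 whole hippocampus arrays, both as log2 intensity, with a point per array coloured by group. Intact replicates 2 and 7 lie apart at the lower right, with Slc17a7 at 12.32 and 12.47, and the other 22 arrays lie between 10.39 and 11.35.

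With group and slide means removed, Slc17a7 and Slc1a3 had a Pearson r of -0.76 over the 24 arrays and -0.46 over 22 without the 2 farthest, as a description. The genes whose residuals followed Slc17a7 most closely over these arrays were Iqsec2 (r = 0.97), Nlgn2 (r = 0.96) and Kmt2e (r = 0.96), and without intact replicates 2 and 7 their r was 0.89, 0.89 and 0.91. For Slc1a3 they were Cnot2 (r = 0.92), Tubgcp3 (r = 0.92) and Myo6 (r = 0.92), with 0.84, 0.87 and 0.82 without the same arrays. For Slc17a6 they included Sstr1 (r = 0.87) and Pdcl2 (r = 0.81), with 0.79 and 0.72 without them. For Slc1a1 they were Atosa (r = 0.77), Plekhn1 (r = 0.76) and Ski (r = 0.68), and for Slc1a2 Upf3b (r = 0.72) and MGC72942 (r = 0.72), beside a probe whose symbol the file had turned into a date.

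The wider glutamate and glutamine pathway was read from a list of 40 other genes, of which 35 had a probe. For aged against adult, 0 of 32 tested genes were called in CA1, 1 of 30 in CA3, 0 of 30 in DG and 0 of 32 in whole hippocampus. Over all probes 0.0501%, 0.912%, 0.0296% and 0.318% were called. In the same order, 1, 3, 1 and 3 listed genes had an unadjusted p under 0.05. Over all probes it was 606 of 9978, 1364 of 9873, 246 of 10152 and 587 of 10370. For impaired against intact, 0 listed genes and 0% of all probes were called in each region. At that unadjusted p there were 0, 3, 1 and 1 listed genes. Over all probes it was 33 of 9978, 500 of 9873, 196 of 10152 and 600 of 10370. The gene called was Slc1a5, a neutral amino acid exchanger that carries glutamine. In CA3 it averaged 6.12 ± 0.08 in aged impaired rats, 6.25 ± 0.21 in aged intact rats and 5.71 ± 0.12 in adult rats (n = 4 each). The aged minus adult difference was 0.47 ± 0.09 (adjusted p = 0.0191), with all aged arrays but only 2 of 4 adult arrays detecting it. Slc1a5 thus passed the detection filter through the aged arrays, where it was higher, and its adult values lay near background. The call therefore follows in part from the filter, and the gene was not tested among probes detected on every array. The size depended on the scaling, with 0.26 (adjusted p = 0.0497) without background correction and 0.70 (adjusted p = 0.0181) in the processed values. The call was lost when adult replicate 1 was left out (0.45, adjusted p = 0.0727), or replicate 3 (0.45, adjusted p = 0.0661), or replicate 4 (0.46, adjusted p = 0.077), and in 1 fit over all 60 arrays (0.47, adjusted p = 0.898).

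Between subregions, the share of the list called was near that of all probes. In CA1 against CA3, 3 of 34 were higher and 7 lower, with a median of 0.03. In CA1 against DG, 14 were higher and 3 lower, with a median of 0.18, and in CA3 against DG, 12 were higher and 1 lower, with a median of 0.15. The share of the list called was 29.4%, 50% and 38.2%, beside 29.6%, 44% and 39.5% of all probes, and the median over all probes was -0.02, -0.03 and 0.00.

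Among glutamine carriers, Slc38a1, a neuronal uptake carrier, was higher in CA1 than in DG by 0.56 ± 0.14 (adjusted p = 0.002). Without CA1 adult replicate 4 that difference was 0.42 (adjusted p = 0.00025). Slc38a1 then also passed for CA3 minus DG, at 0.29 (adjusted p = 0.00606). Slc38a3, the astrocyte carrier that releases glutamine, was higher in CA1 than in DG by 0.49 ± 0.11 (adjusted p = 0.000422) and higher in CA3 than in DG by 0.31 ± 0.11 (adjusted p = 0.0232). Slc1a4, a neutral amino acid exchanger of the Slc1 family, was near background and passed the detection filter mainly through CA1, so no difference is given. It was detected on 8 of 12 CA1 arrays, 1 of 12 CA3 arrays and 2 of 12 DG arrays. Glud1, the mitochondrial glutamate dehydrogenase, was at 0.19 ± 0.18 for CA1 minus CA3 (adjusted p = 0.43) and 0.11 ± 0.18 for CA1 minus DG (adjusted p = 0.644). Without CA1 adult replicate 4, Glud1 passed at 0.41 (adjusted p = 1.74e-05) and 0.32 (adjusted p = 0.000235). By age, Glud1, Slc38a1, Slc38a3 and Slc1a4 passed in no region where they were tested.

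Markers of other cells moved with the subregions as well. Of 10 tested oligodendrocyte markers, 9 were higher in CA1 than in DG (90%, beside 44% of all probes called). In CA3, 9 were higher than in DG (90%, beside 39.5%). Mbp, the myelin basic protein, was higher in CA1 than in DG by 1.44 ± 0.25 (adjusted p = 2.26e-05), and Ttr, made by the choroid plexus, by 1.21 ± 0.34 (adjusted p = 0.00461). Of 7 choroid plexus markers only 2, Ttr and Enpp2, were tested, and both were higher in CA1 than in DG. The other 5, Folr1, Kl, Clic6, Aqp1 and Otx2, were detected on no CA1, CA3 or DG array. Of 7 microglia markers, 5 were higher in CA1 than in DG (71.4%, beside 44% of all probes) and 4 in CA3 than in DG (57.1%, beside 39.5%). Whether these differences in tissue bear on the transporters was not tested.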

How the data were processed

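Per the file headers, the deposited non-normalized table held 2 columns per array, the average signal as a linear intensity and the detection p-value of every probe. A second deposited table gave processed intensity values that were linear in the raw signal within each array (largest residual 0.0212), and the software behind it was not given in the sources used here.

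Probes were matched to members by file symbol, and other genes by a RefSeq gene table of the rat, which left 117 of 22523 probes with no symbol. The brightest probe stood for a listed gene. The raw values went through neqc of limma 3.58.1 (R 4.3.3), which estimated background from the detection p-values, with an offset of 16, quantile normalization of all 60 arrays together and log2. Testing required detection (p under 0.01) on 4 or more arrays of a subregion, or of the 36 subregion arrays, or on 6 or more of whole hippocampus. limma (lmFit and eBayes) fitted the 3 groups of each region (whole hippocampus also had a slide term) and the 36 subregion arrays together for differences between subregions. Aged against adult sets the average of both aged groups against adult. P-values were two-sided with Benjamini-Hochberg adjustment over all probes tested. A gene below background on every array of a group was read beside the faintest detected probe of each array, or its own value where that was higher. The code was tested on simulated data.

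The members, lists, rules and alternatives were chosen with earlier results of these data known. The text names every member, the pathway genes called by age or impairment and Glud1, Slc38a1, Slc38a3 and Slc1a4. Of the marker lists it names Gfap, Aldoc, Mbp, Ttr and Camk2a, and others where a member result is read beside them. It also names the 3 most alike genes per member and measure. A few genes that this rule would name are not reported here. Alternatives were no background correction, the processed values, detection on every array, no detection filter, normalization within a region, 1 fit over all 60 arrays, array weights, a replicate block, no slide term, each slide alone and each array left out. Python 3.11.15 drew the figures with matplotlib 3.10.9 and made the tables with numpy 2.4.6 and pandas 2.3.3.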

Additional observations from a re-analysis of the deposited data

Results flagged for a closer look

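Among 72 member groups of 4 to 9 arrays, 4 held an array far from the others by Dixon's criterion, which chance gives in about 5% of groups. Slc17a8 on CA1 adult replicate 4 read 7.14, against 4.68 to 4.88 on the other 3 arrays of its group, and was not detected there. Slc17a7 on whole hippocampus adult replicate 2 was low at 10.62, against 10.90 to 11.04 on the others. Slc17a8 read 5.11 on whole hippocampus impaired replicate 2, against 4.70 to 4.87, and 5.40 on intact replicate 8, against 4.74 to 5.03, all without detection.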

How the results depend on the processing

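The counts of members called kept their main value or stayed within 1.5 times of it under every alternative run but 2. In CA1 by age, 1 member (Slc1a1) was called in 1 fit over all 60 arrays, against 0, where that fit called 19.9% of all probes, and in CA3 by age 1 (Slc17a7) without background correction, against 0. No called difference of a member reversed in sign. Among single member differences, 3 lost a call under alternatives other than leaving out arrays (Slc1a2 for CA1 minus CA3 and for CA1 minus DG, and Slc17a6 for CA3 minus DG, each in the processed values) and 5 gained one. Leaving out 1 array at a time, 17 refits lost a call (9 for Slc1a2, CA1 minus DG, and 8 for Slc17a6, CA3 minus DG) and 1 gained one. Slc17a8 was not tested among probes detected on every array, and each gene had 1 probe, so the choice of probe could not be varied. The labels do not say what a replicate number shares. Same-numbered arrays of different groups had correlations of their deviations from -0.60 to 0.31 within regions and -0.58 to 0.48 across subregions. Differently numbered arrays ran from -0.68 to 0.68 and from -0.50 to 0.71. Across subregions the median was 0.11 for the same number and -0.02 for different numbers. These values cannot settle whether samples were paired, and the main fit over the 36 subregion arrays treated them as independent. With a replicate block the members called were 0 by age and by impairment in each region, and 5, 5 and 3 in CA1 minus CA3, CA1 minus DG and CA3 minus DG, as without it. Dim signal limits Slc17a8, and region lies on slides that the design cannot separate from it.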

Other observations

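Whole hippocampus did not lie between the subregions for every transporter. Slc17a7 averaged 11.01 ± 0.48 over the 24 whole hippocampus arrays, above its mean in CA1 (9.16), in CA3 (9.90) and in DG (10.15). Slc17a6 averaged 10.06 ± 0.23 in whole hippocampus, near its CA1 mean of 10.15 and above its means of 8.29 in CA3 and 7.95 in DG. Slc1a1 at 12.17 ± 0.12 and Slc1a3 at 12.92 ± 0.19 lay below all 3 of their subregion means. The whole hippocampus arrays were on slides of their own, and tissue and slide cannot be told apart.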
